A study of Mus musculus with 13 samples.

Results

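Cathepsins and the cystatins that inhibit them were followed in the cortex of APPPS1 mice with and without the gene for apolipoprotein E. The members were 10 genes chosen by symbol from a table of 20971 genes: the cathepsins Ctsa, Ctsb, Ctsc, Ctsd, Ctsh, Ctsl, Ctss and Ctsz, and the cystatins Cst3 and Cst7. The 10 members were all measured, and all passed the filter on low values, a mean of at least 0.5 RPKM over the libraries, that left 13343 genes for testing. RPKM is the number of reads of a gene, scaled by its length in kilobases and by the mapped reads of the library. Because it is scaled by length, levels of different genes can be set side by side.

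The libraries came from the cortex of C57BL/6 mice aged 6 months, with 6 mice labelled APPPS1 and 7 labelled APPPS1;Apoe-/-. The series' design text names the transgenic line APPPS1-21 and counts the libraries as separate mice. By their labels both groups carry the APPPS1 transgenes, mutant human amyloid precursor protein and presenilin driven by the neuronal mouse Thy1 promoter. The comparison is thus of cortex labelled APPPS1 with and without Apoe, and no group without the transgenes was analysed here. Amyloid was not measured here, and some APPPS1;Apoe-/- libraries, described below, had low App and Thy1. The labels used here give no sex, litter or batch, and tissue is whole cortex.

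Cathepsins are the main proteases of lysosomes, made as inactive precursors that are sorted to the lysosome and cut to their active form at low pH. Cathepsin D is an aspartic protease, cathepsin A a serine carboxypeptidase, and cathepsins B, C, H, L, S and Z are cysteine proteases of the papain family. Cystatins block the papain family: cystatin C, encoded by Cst3, is secreted, whereas cystatin F, encoded by Cst7, is delivered to lysosomes of immune cells. In the brain, microglia are rich in several cathepsins and express Cst7 when they gather at amyloid plaques, while Cst3 is also made by astrocytes and neurons.

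Apoe ran from 463 to 670 RPKM in APPPS1 libraries and from 4.01 to 6.35 RPKM in APPPS1;Apoe-/- libraries, and the genotype written in the table matched the labels in 13 of 13 libraries. The table gives 28402328 to 77005806 alignments per APPPS1 library and 18455493 to 34538031 per APPPS1;Apoe-/- library, so depth was on the whole lower in the second group. A pair of APPPS1;Apoe-/- libraries, replicates 2 and 5, stood apart: App was at 106 and 116 RPKM there and at 176 to 217 RPKM in the other 11 libraries, and Thy1 was at 52.2 and 56.9 against 172 to 245 RPKM. Mouse App and the transgene share 1 value in the table, and whether these mice carried less transgene was not tested. The genotype difference of each member is given with and without this pair, called the low-App libraries below.

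In APPPS1 cortex the members spanned a wide range. Cst3 was the most abundant at 2380 ± 50.5 RPKM (SD, n = 6), followed by Ctsd at 858 ± 54.6 RPKM, Ctsb at 293 ± 15.5 RPKM and Ctss at 250 ± 21.2 RPKM. Ctsz followed at 161 ± 9.40 RPKM, Ctsa at 60.9 ± 2.02, Cst7 at 57.1 ± 12.2, Ctsl at 43.4 ± 1.63, Ctsh at 23.0 ± 2.30 and Ctsc at 2.03 ± 0.176 RPKM. Neighbours in this order did not overlap between libraries, except Ctsb with Ctss, Ctsa with Cst7, and Cst7 with Ctsl. In APPPS1;Apoe-/- cortex the order was the same for the other 9 members, but Cst7 lay at rank 9 with 10.6 ± 7.35 RPKM (SD, n = 7), between Ctsh and Ctsc.

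**Figure D1:**
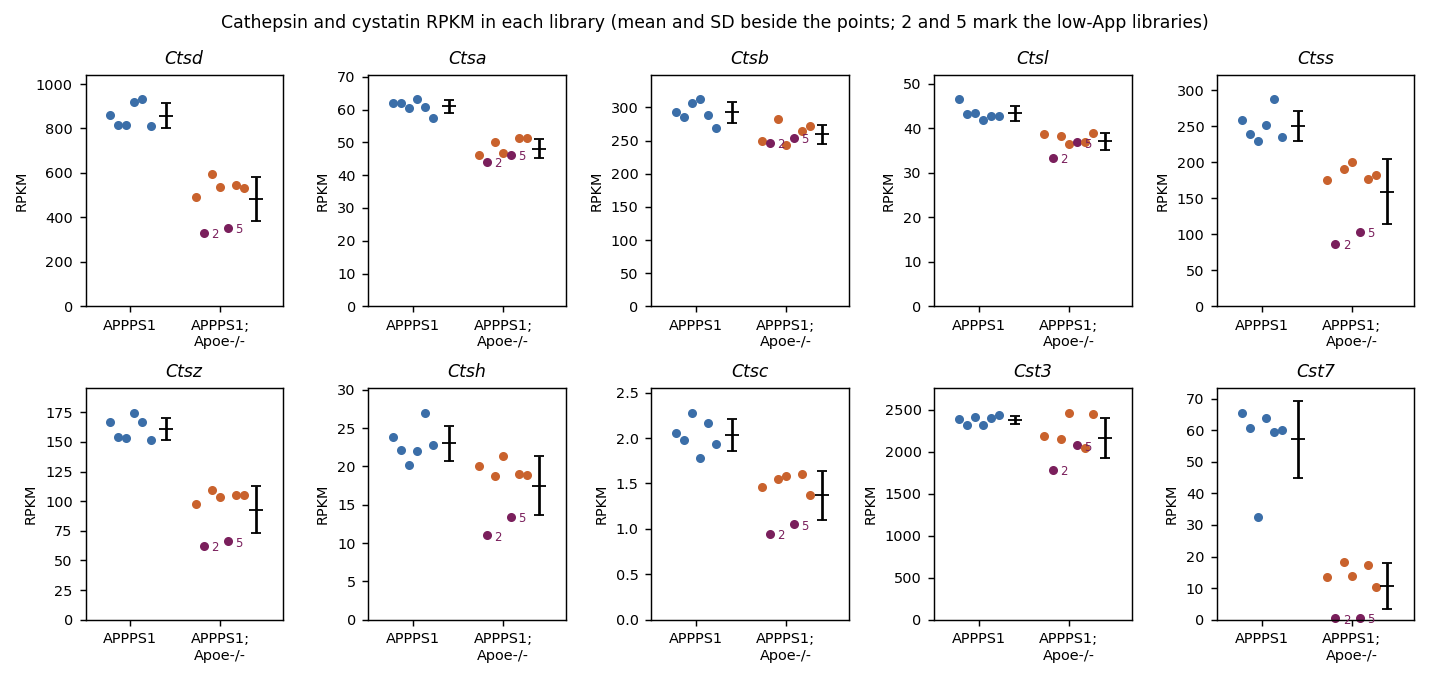
RPKM of the 10 members in each library (points), with the mean and SD of each group beside them; the axis of each panel starts at 0. The APPPS1;Apoe-/- points lie below all APPPS1 points for Ctsd, Ctsa, Ctsl, Ctss, Ctsz, Ctsc and Cst7, and the low-App libraries, marked 2 and 5, lie lowest for Ctsd, Ctss, Ctsz, Ctsh, Ctsc and Cst7.

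Promoters of some members are shown as a description, and whether they relate to the changes was not tested. Among the members, Ctsz had the profile over libraries most like that of Ctsd. Ctsd, Ctsz and Ctss had the largest changes among the cathepsins, and Cst7 the largest of all. Ctsa is shown as well, by the 1 of its 2 windows that held a motif described below. RefSeq promoter windows of the GRCm38.p6 build, trimmed to 250 bases before and 30 after the start of transcription, were matched for 8 of 10 members, all but Ctsb and Ctsh. Each is written 5′ to 3′ on the gene's strand. Capitals mark CACGTG, the core of the E-box bound by the Tfeb family of lysosomal regulators, and GAGGAAGT, a purine-rich motif of the kind bound by the myeloid factor PU.1, shown as ACTTCCTC where it lies on the other strand. Both strands were searched, and no window of a member held both motifs.
Ctsd promoter, chr7:142387798-142388077, minus strand: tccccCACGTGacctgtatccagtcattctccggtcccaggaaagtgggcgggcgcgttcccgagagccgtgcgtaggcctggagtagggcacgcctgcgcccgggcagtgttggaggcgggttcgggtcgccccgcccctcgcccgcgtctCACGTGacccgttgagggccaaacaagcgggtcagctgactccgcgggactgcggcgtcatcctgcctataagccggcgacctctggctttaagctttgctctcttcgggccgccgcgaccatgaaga
Ctsz promoter, chr2:174439010-174439289, minus strand: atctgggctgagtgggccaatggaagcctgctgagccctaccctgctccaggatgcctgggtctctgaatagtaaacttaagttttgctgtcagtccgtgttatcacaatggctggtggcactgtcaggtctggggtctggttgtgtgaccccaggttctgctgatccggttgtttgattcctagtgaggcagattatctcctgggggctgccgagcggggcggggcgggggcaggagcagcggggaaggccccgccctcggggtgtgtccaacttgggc
Ctsa promoter, the downstream of its 2 windows, chr2:164833523-164833802, plus strand: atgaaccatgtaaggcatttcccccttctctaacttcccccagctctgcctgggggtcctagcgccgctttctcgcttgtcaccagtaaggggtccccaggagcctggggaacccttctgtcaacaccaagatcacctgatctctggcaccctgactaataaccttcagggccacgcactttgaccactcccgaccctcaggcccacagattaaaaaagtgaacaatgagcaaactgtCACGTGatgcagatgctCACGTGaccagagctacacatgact
Ctss promoter, chr3:95526536-95526815, plus strand: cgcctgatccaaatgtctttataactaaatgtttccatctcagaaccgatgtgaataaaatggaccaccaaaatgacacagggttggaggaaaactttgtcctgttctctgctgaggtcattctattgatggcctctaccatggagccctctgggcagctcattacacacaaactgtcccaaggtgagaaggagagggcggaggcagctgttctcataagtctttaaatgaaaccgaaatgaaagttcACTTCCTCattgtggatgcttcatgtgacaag
Cst7 promoter, chr2:150570165-150570444, plus strand: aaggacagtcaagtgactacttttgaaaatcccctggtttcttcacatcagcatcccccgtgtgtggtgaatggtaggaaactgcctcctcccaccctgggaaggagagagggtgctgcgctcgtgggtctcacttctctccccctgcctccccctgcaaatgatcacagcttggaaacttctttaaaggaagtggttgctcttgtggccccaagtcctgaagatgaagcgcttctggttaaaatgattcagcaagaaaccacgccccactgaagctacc

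CACGTG was in the windows of Ctsd, starting 245 and 98 bases before the start, of Ctsa, 12 bases before and 5 after the start in 1 of its 2 windows, and of Ctsl, 236 bases before it. The other Ctsa window, across the annotated start of the gene, held neither string. Over all 32851 windows of this length, 6.79% held CACGTG. GAGGAAGT was in the windows of Ctss, across the start, and of Ctsc, 151 bases before it, and in 2.82% of all windows. The windows of Ctsz, Cst3 and Cst7 held neither string. These are exact matches of letters and do not show binding, and strings that differ by a base were not counted.

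Between genotypes, 8 of the 10 members fell in APPPS1;Apoe-/- cortex and 0 rose, by limma on log2(RPKM + 0.5) with Benjamini-Hochberg adjustment over all 13343 tested genes and a threshold of 0.05. Of all tested genes, 4.74% were called lower and 3.48% higher. The members were chosen with earlier results of these data known, so setting their counts beside these shares is a description and not a test. The members' median log2 difference was -0.43, beside -0.01 over all tested genes. Without the low-App libraries 7 members fell, all but Ctsb of the same 8, the members' median was -0.32, and 3.3% of all genes were called lower and 1.78% higher. In 7 members the highest APPPS1;Apoe-/- value was under the lowest APPPS1 value, with and without the low-App libraries. That held for 2.17% of all tested genes with these libraries and for 2.84% without them.

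Ctsd (chr7:142375911-142388038, mm10, minus strand) encodes the aspartic protease that starts the breakdown of many lysosomal proteins. Its level had a low of 811, a median of 837 and a high of 931 RPKM in APPPS1 libraries, and 331, 532 and 595 RPKM in APPPS1;Apoe-/- libraries. The groups were far apart, and the low-App libraries were the lowest of all, at 61.4% and 65.7% of the mean of the other 5 in their group. The fall was -0.86 ± 0.12 on the log2 scale (SE, adjusted p = 5.58e-04), to 56.3% of the APPPS1 mean. Without the low-App libraries it was -0.67 ± 0.06 (adjusted p = 1.49e-05), to 62.9%.

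Ctsz (chr2:174427493-174439039, minus strand) encodes a carboxypeptidase also called cathepsin X. It was at 152 (lowest), 160 (median) and 175 RPKM (highest) in APPPS1 and at 62.2, 104 and 110 RPKM in APPPS1;Apoe-/- libraries. The highest APPPS1;Apoe-/- library was still below the lowest APPPS1 library, and replicates 2 and 5 were again lowest. Ctsz fell by 0.82 ± 0.12 on the log2 scale (adjusted p = 0.000960), and by 0.62 ± 0.05 without the low-App libraries (adjusted p = 6.78e-06). The mean-centred log2 profiles of Ctsz and Ctsd differed by 0.0318 on average over the 13 libraries, less than either differed from Ctss.

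Ctss (chr3:95526786-95556403, plus strand) encodes the cysteine protease that trims the invariant chain of class II molecules and stays active at neutral pH. APPPS1 libraries had 229 (lowest), 245 (median) and 287 RPKM (highest), and APPPS1;Apoe-/- libraries 87.2, 177 and 200 RPKM. The groups did not overlap, but the spread within APPPS1;Apoe-/- was wide, because the low-App libraries were at 47.2% and 56.1% of the mean of the others. Ctss fell by 0.71 ± 0.17 on the log2 scale (adjusted p = 0.0176), and by 0.43 ± 0.06 without the low-App libraries (adjusted p = 0.000879). The call was lost without the filter on low values (adjusted p = 0.0553) and with log2 alignments as a covariate (adjusted p = 0.156), but not with this covariate once the low-App libraries were left out (adjusted p = 0.00594).

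Ctsa (chr2:164832873-164841032, plus strand) encodes the protective protein that holds the lysosomal enzymes Neu1 and Glb1 in their complex. Its range was narrow in both groups, 57.3 to 63.1 RPKM with a median of 61.3 in APPPS1 and 44.0 to 51.4 RPKM with a median of 46.7 in APPPS1;Apoe-/- libraries. No library crossed from one group to the other, and the low-App libraries were close to the rest, at 89.6% and 94.1% of their mean. Ctsa fell by 0.34 ± 0.05 on the log2 scale (adjusted p = 0.000440), and by 0.31 ± 0.05 without the low-App libraries (adjusted p = 0.00154).

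Ctsl (chr13:64359337-64370890, minus strand), a broad endopeptidase, changed less. APPPS1 libraries had 41.8 (lowest), 43.0 (median) and 46.5 RPKM (highest), and APPPS1;Apoe-/- libraries 33.4, 36.9 and 39.0 RPKM. The groups did not overlap. Ctsl fell by 0.22 ± 0.05 on the log2 scale (adjusted p = 0.00684), to 85.5% of the APPPS1 mean, and without the low-App libraries by 0.19 ± 0.04 (adjusted p = 0.0202). With log2 alignments as a covariate it was not called (adjusted p = 0.1003).

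Ctsb (chr14:63122462-63145923, plus strand), an endopeptidase that also cuts dipeptides from carboxyl ends, was the called member with the smallest change. It was at 269 (lowest), 291 (median) and 312 RPKM (highest) in APPPS1 and at 243, 254 and 283 RPKM in APPPS1;Apoe-/- libraries. The groups overlapped, with 5 of 7 APPPS1;Apoe-/- libraries below the lowest APPPS1 library. Its fall of 0.18 ± 0.05 on the log2 scale was close to the threshold (adjusted p = 0.0412), and it was called under 9 of 26 other settings, with adjusted p-values from 0.0274 to 0.332 over them. Without the low-App libraries the difference was -0.16 ± 0.05 (adjusted p = 0.113), and the call also ended when any of 10 single libraries was left out.

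Ctsc (chr7:88278085-88310888, plus strand) encodes dipeptidyl peptidase 1, which activates the serine proteases of immune cell granules and is a target of cystatin F. It was weak, at 1.78 (lowest), 2.01 (median) and 2.28 RPKM (highest) in APPPS1 and at 0.949, 1.47 and 1.61 RPKM in APPPS1;Apoe-/- libraries. The groups did not overlap. Ctsc fell by 0.45 ± 0.09 on the log2(RPKM + 0.5) scale (adjusted p = 0.00805), a scale that understates the change of so weak a gene, and to 67.3% of the APPPS1 mean. Without the low-App libraries it fell by 0.33 ± 0.07 (adjusted p = 0.0136). With log2 alignments as a covariate it was not called (adjusted p = 0.154).

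Ctsh (chr9:90054152-90076089, plus strand), an aminopeptidase, did not pass the test. APPPS1 libraries had 20.2 (lowest), 22.5 (median) and 27.0 RPKM (highest), and APPPS1;Apoe-/- libraries 11.02, 18.8 and 21.4 RPKM. In 6 of 7 APPPS1;Apoe-/- libraries it lay below the lowest APPPS1 library, and replicate 4 overlapped. The difference was -0.41 ± 0.13 on the log2 scale (adjusted p = 0.0596), and -0.22 ± 0.07 without the low-App libraries (adjusted p = 0.0779). Leaving out APPPS1;Apoe-/- replicate 4 took it past the threshold, at -0.46 (adjusted p = 0.0322).

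Of the cystatins, Cst7 (chr2:150570415-150578944, plus strand) changed the most of all members and Cst3 did not pass the test. Cst7 was at 59.5 to 65.6 RPKM in 5 APPPS1 libraries and at 32.6 RPKM in replicate 3. In APPPS1;Apoe-/- libraries it was at 13.5, 0.490, 18.2, 13.8, 0.518, 17.2 and 10.5 RPKM in replicates 1 to 7. Every APPPS1;Apoe-/- library was thus below the lowest APPPS1 library, and the low-App libraries were almost without Cst7, at 3.35% and 3.53% of the mean of the other 5. Cst7 fell by 3.03 ± 0.66 on the log2(RPKM + 0.5) scale (adjusted p = 0.0107), to 18.6% of the APPPS1 mean. Without the low-App libraries it fell by 1.92 ± 0.17 (adjusted p = 1.56e-05), to 25.7%, so these 2 libraries enlarged the estimate and its error alike. With log2 alignments as a covariate it was not called over all libraries (adjusted p = 0.123), but was without the low-App libraries (adjusted p = 3.02e-05).

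Cst3 (chr2:148871722-148875692, minus strand), on the same chromosome, was at 2319 (lowest), 2395 (median) and 2438 RPKM (highest) in APPPS1 libraries. In APPPS1;Apoe-/- libraries it was at 1788, 2156 and 2466 RPKM. The groups overlapped, since 2 APPPS1;Apoe-/- libraries, replicates 4 and 7, were above every APPPS1 library. The difference was -0.14 ± 0.07 on the log2 scale (adjusted p = 0.198), and -0.08 ± 0.06 without the low-App libraries (adjusted p = 0.451). It was called under 1 of 26 other settings, quantile normalization (-0.21, adjusted p = 0.0470).

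**Figure D2:**
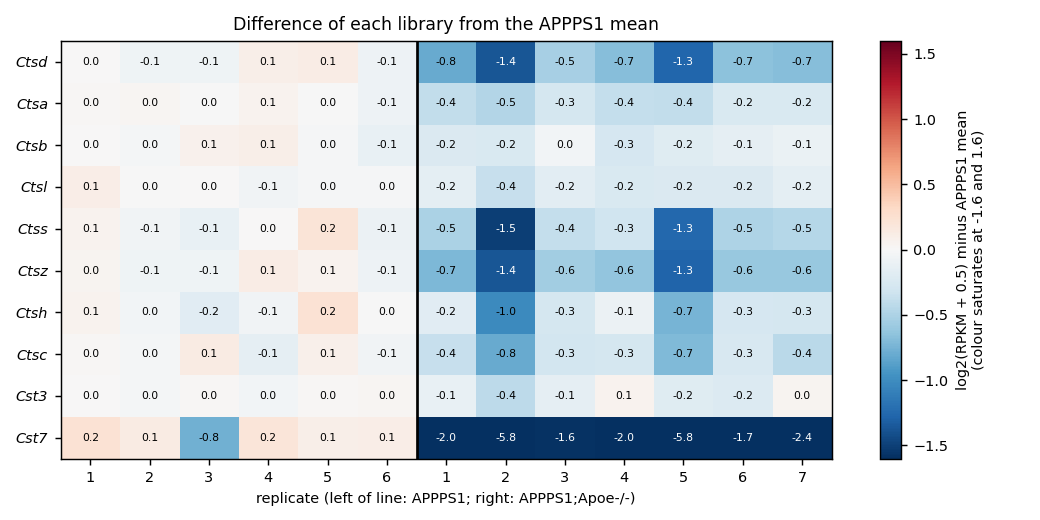
Difference of each library's log2(RPKM + 0.5) from the APPPS1 mean of the same gene, for the 10 members (rows) in 13 libraries (columns, numbered by replicate within a group). The APPPS1;Apoe-/- columns 2 and 5, the low-App libraries, show the lowest values of their group for Ctsd, Ctss, Ctsz, Ctsh, Ctsc and Cst7, and Cst7 lies near or beyond the lower end of the colour scale in every APPPS1;Apoe-/- column.

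The low-App libraries were often the lowest. In 9 of 10 members the lowest of all 13 libraries was a low-App library, and in 6 members both low-App libraries were the lowest pair. The shares of all tested genes with these patterns were not computed, so the counts are not read as particular to the members. The coefficient of variation of Ctsd was 6.37% over APPPS1 libraries and 20.9% over APPPS1;Apoe-/- libraries, and 6.91% over the latter without the low-App pair. For Ctss the same values were 8.47%, 28.1% and 5.58%, and for Cst7 21.4%, 69.3% and 21.2%. Genes outside the members with the profile most like Ctsd were C3ar1 (0.0760 mean absolute log2 difference over 13 libraries), Pycard (0.0766) and Itgb2 (0.0873). Among those most like Ctss were Itgb2 (0.0700) and Fcer1g (0.0768). The profile of Cst7 was nearest to those of Ccl3 (0.561), Clec7a (0.605) and Ccl4 (0.680), and that of Cst3 to those of Clint1 (0.0487), Eif3b (0.0492) and Rpl27a (0.0507). Likeness here includes the genotype difference and the low-App libraries.

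The cathepsin transcripts also changed in make-up. Summed over the 16 cathepsin genes measured, the level was 1725 ± 89.5 RPKM (SD, n = 6) in APPPS1 and 1131 ± 178 RPKM (SD, n = 7) in APPPS1;Apoe-/- cortex, or 1231 ± 57.8 RPKM (SD, n = 5) without the low-App libraries. Ctsd made up 48.9% to 50.6% of this sum in APPPS1 libraries and 38.8% to 45.2% in APPPS1;Apoe-/- libraries, whereas Ctsb made up 15.7% to 18.4% and 19.9% to 29.0%. The ratio of Ctsd to Ctsb was 2.66 to 3.22 in APPPS1 libraries. It was 1.34 and 1.39 in the low-App libraries and 1.95 to 2.20 in the other APPPS1;Apoe-/- libraries. The ratio of Cst7, the inhibitor, to Ctss was 0.142 to 0.257 in APPPS1 and 0.00499 to 0.0977 in APPPS1;Apoe-/- libraries. Neither ratio overlapped between groups. Both were chosen after the levels had been seen, so they are a description with no test.

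**Figure D3:**
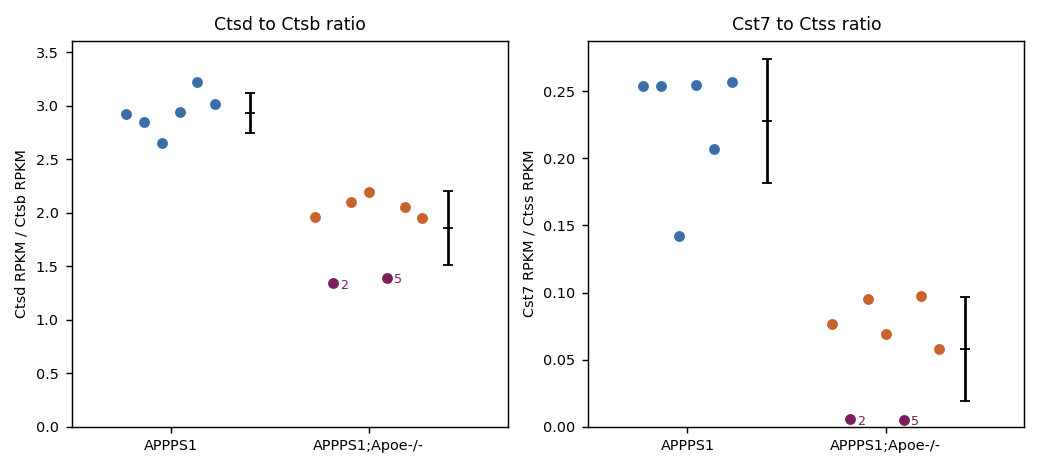
Ratio of Ctsd to Ctsb RPKM (left) and of Cst7 to Ctss RPKM (right) in each library, with the mean and SD of each group beside the points and axes from 0. Both ratios are lower in every APPPS1;Apoe-/- library than in any APPPS1 library, and lowest in the low-App libraries, marked 2 and 5.

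In bulk cortex, fewer cells of a type and less RNA per cell cannot be told apart, and marker genes of microglia were lower too. The summed level of 12 genes that identify microglia was 268 to 326 RPKM in APPPS1 libraries and 147 to 261 RPKM in APPPS1;Apoe-/- libraries, with 147 and 157 RPKM in the low-App libraries. Of these 12 genes 7 fell and 0 rose, with a median of -0.41, and 6 fell without the low-App libraries. The genes did not move alike, with log2 differences from -0.81 for Gpr34 to -0.08 for Tmem119 (adjusted p = 0.776). P2ry12, Sall1, Slc2a5 and Selplg were not called either. Of 13 tested genes common to microglia and other myeloid cells, 11 fell (10 without the low-App libraries). Their median was -0.69. The sum over all 14 genes of this list, with the untested Spi1, was 802 to 990 against 305 to 668 RPKM. Csf1r is in both lists. Markers of perivascular macrophages summed to 5.84 to 9.19 against 5.48 to 9.33 RPKM, with 0 of 5 tested lower and 1, Stab1, higher. Markers of monocytes and neutrophils summed to 1.18 to 3.71 against 1.64 to 8.32 RPKM, with 0 of 3 tested called, and those of T and NK cells to at most 1.42 RPKM, with 0 tested.

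Marker lists of other cortical cells were read in the same way. Astrocyte markers summed to 540 to 612 RPKM in APPPS1 and 577 to 646 RPKM in APPPS1;Apoe-/- libraries, with Aqp4 lower and Gjb6 higher among 9, and 0 called without the low-App libraries. Neuron markers summed to 3098 to 3623 against 3112 to 3844 RPKM, with 1 of 8, Slc17a7, lower, and 0 called without the low-App libraries. Oligodendrocyte markers summed to 849 to 1187 against 959 to 1521 RPKM, with 4 of 8 higher, and 1, Mal, without the low-App libraries. The low-App libraries were at 1346 and 1521 RPKM, and the other APPPS1;Apoe-/- libraries at 959 to 1298 RPKM. Of 7 endothelial markers 0 were called over all libraries and 1, Cldn5, was lower without the low-App libraries (-0.58, adjusted p = 0.0223). With and without them 0 of 8 markers of striatum were called, and Ttr, the tested marker of choroid plexus, was not called either. The striatum sum was 326 to 801 against 426 to 910 RPKM. It was 703 and 910 RPKM in the low-App libraries and 426 to 683 RPKM in the other APPPS1;Apoe-/- libraries. Choroid plexus markers summed to 5.10 to 34.0 RPKM in APPPS1 libraries. They summed to 11.8 and 68.2 RPKM in low-App replicates 2 and 5, and to 7.10 to 25.7 RPKM in the other APPPS1;Apoe-/- libraries. Whether dissection differed was not tested. No listed marker was at 0 in every library.

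Each gene was therefore also taken relative to the mean log2(RPKM + 0.5) of the 12 microglia genes in its library. On this relative scale 3 members were lower and 1 was higher in APPPS1;Apoe-/- libraries. Of all tested genes, 0.719% were lower and 75.2% higher, and their median was 0.42, since the markers themselves were lower. Cst7 was lower by 2.60 ± 0.39 log2 units (adjusted p = 2.35e-05), Ctsd by 0.43 ± 0.13 (adjusted p = 0.00653) and Ctsz by 0.40 ± 0.13 (adjusted p = 0.0109). These 3 were also called without the low-App libraries, at -1.64, -0.40 and -0.35 (adjusted p = 3.11e-06, 0.00136 and 0.00191), where 0.914% of all genes were lower and 57.6% higher. Cst3 was higher by 0.28 ± 0.13 (adjusted p = 0.0485), a call that held in 7 of 27 other settings.

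The other 6 members did not differ from the microglial mean by the test. Ctss was at -0.28 ± 0.14 (adjusted p = 0.0674), Ctsc at -0.02 ± 0.13 (0.877), Ctsh at 0.02 ± 0.13 (0.898), Ctsa at 0.09 ± 0.14 (0.560), Ctsl at 0.20 ± 0.14 (0.172) and Ctsb at 0.25 ± 0.14 (0.0966). The result depended on the markers chosen. Relative to 13 genes shared by microglia and other myeloid cells, which fell further, Cst7 was the 1 member lower, Ctsd was at -0.12 (adjusted p = 0.549) and Ctsz at -0.09 (adjusted p = 0.670). Ctsb (0.56, adjusted p = 0.00834), Ctsl (0.51, adjusted p = 0.0176) and Cst3 were then higher. The shares of all tested genes called lower and higher relative to these 13 genes were not computed. Relative to the 12 microglia genes 75.2% were called higher, so the higher calls are not read as particular to these members. With log2 alignments added to the fit relative to the 12 microglia genes, Cst7 was called lower (-2.32, adjusted p = 0.00220), with 0.255% of all genes, whereas Ctsd was at -0.41 (adjusted p = 0.0866) and Ctsz at -0.37 (adjusted p = 0.113). With the same covariate and without the low-App libraries, Cst7 (-1.85, adjusted p = 5.76e-06), Ctsd (-0.39, adjusted p = 0.00568) and Ctsz (-0.34, adjusted p = 0.00763) were called lower, with 0.667% of all genes.

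**Figure D4:**
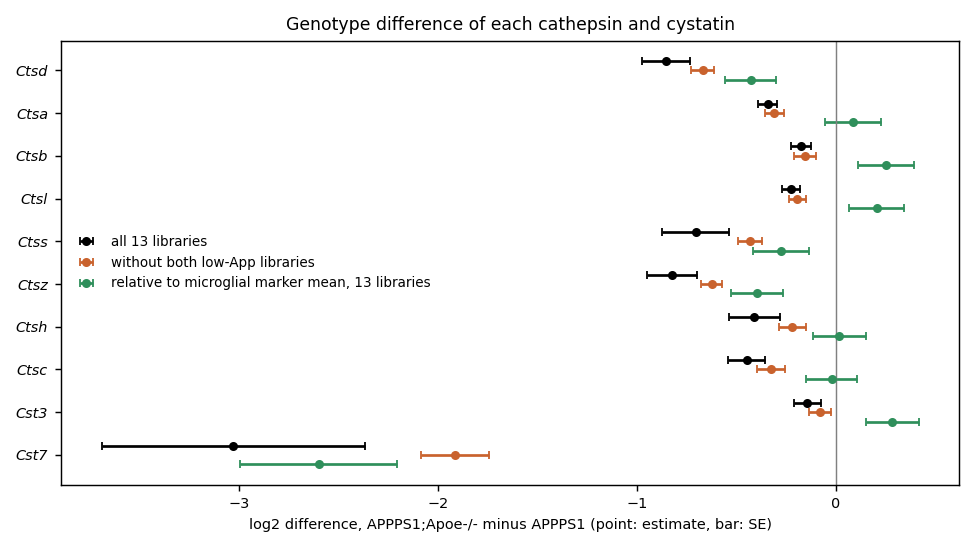
Estimated log2 difference, APPPS1;Apoe-/- minus APPPS1, with its SE for the 10 members: over all 13 libraries, without both low-App libraries, and relative to the microglial marker mean. All 10 estimates over 13 libraries are below 0, and relative to the marker mean Cst7, Ctsd and Ctsz are the members called lower.

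Sequencing depth moved with genotype as well. When log2 alignments entered the fit as a covariate, 3 members were called lower and 0 higher, beside 0.989% of all genes lower and 0.525% higher. They were Ctsa (-0.34, adjusted p = 0.0156), Ctsd (-0.80, adjusted p = 0.0230) and Ctsz (-0.76, adjusted p = 0.0326). Cst7 kept a difference of -2.71 ± 0.87 (adjusted p = 0.123), Ctss of -0.63 ± 0.22 (0.156), Ctsc of -0.32 ± 0.11 (0.154), Ctsl of -0.21 ± 0.06 (0.1003) and Ctsb of -0.15 ± 0.07 (0.258). With the covariate and without the low-App libraries, 5 members were called lower, beside 1.48% of all genes. They were Cst7 (-2.16 ± 0.18, adjusted p = 3.02e-05), Ctsz (-0.66, adjusted p = 1.05e-04), Ctsd (-0.70, adjusted p = 2.11e-04), Ctss (-0.47, adjusted p = 0.00594) and Ctsa (-0.32, adjusted p = 0.0125).

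The remaining cathepsins and inhibitors that passed the filter on low values gave no call. Of 15 other cathepsin genes listed, 8 were measured and 3 tested, and 0 were called: the cysteine cathepsins Ctsf (20.7 ± 1.59 RPKM in APPPS1, 20.0 ± 2.52 in APPPS1;Apoe-/-), Ctso (10.2 ± 0.463 and 10.04 ± 0.474) and Ctsk (2.50 ± 0.318 and 2.61 ± 0.366). Below the filter, Ctse, an aspartic protease like Ctsd, had 0.292 to 0.536 RPKM in APPPS1 and 0 to 0.132 RPKM in APPPS1;Apoe-/- libraries, with no overlap. Without the filter its difference was -0.65 ± 0.07 (adjusted p = 3.75e-04), in a fit that called 517 of 20915 genes lower. Ctse was singled out after its values were seen, so this is a description and not a test. Of 23 other cystatins and inhibitors resembling cathepsin propeptides, 4 were tested and 0 called. The most abundant, Cstb, which encodes the cytoplasmic inhibitor cystatin B, was at 68.2 ± 5.13 and 69.9 ± 6.89 RPKM.

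Among 17 genes of cathepsin maturation and sorting, 2 fell and 0 rose. Grn, which encodes the lysosomal cofactor progranulin, fell from 57.6 ± 4.67 to 40.6 ± 6.34 RPKM (-0.51 log2, adjusted p = 0.00391, and 0.00512 without the low-App libraries). Glb1, the β-galactosidase held by cathepsin A, fell from 13.3 ± 0.728 to 11.2 ± 0.932 RPKM (-0.23, adjusted p = 0.0219, and 0.0139 without these libraries), whereas Neu1, its partner, was at 6.80 ± 0.282 and 6.15 ± 0.454 RPKM (adjusted p = 0.126). With log2 alignments as a covariate neither Grn (adjusted p = 0.0754) nor Glb1 (adjusted p = 0.0839) was called. Relative to the 12 microglia genes Grn was at -0.08 (adjusted p = 0.547) and Glb1 at 0.20 (adjusted p = 0.208). Lgmn, the protease that cuts cathepsin precursors, was at 109 ± 9.01 and 97.5 ± 8.16 RPKM (adjusted p = 0.131), and Psap, the saposin precursor, at 506 ± 32.3 and 541 ± 46.7 RPKM (adjusted p = 0.374). M6pr, a receptor that carries cathepsins to lysosomes, was at 55.1 ± 2.99 and 59.5 ± 2.86 RPKM (adjusted p = 0.157).

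Of 6 tested genes for other lysosomal peptidases 0 were called, among them Tpp1 at 37.9 ± 1.09 and 38.9 ± 1.504 RPKM. Of the Tfeb family, Tfe3 and Mitf were tested and 0 called, while Tfeb was at 0.360 ± 0.0400 and 0.262 ± 0.115 RPKM, below the filter. Of 7 tested genes of class II antigen processing, the pathway that Ctss serves, H2-DMa fell from 12.8 ± 1.14 to 10.2 ± 1.22 RPKM (adjusted p = 0.0194, and 0.0161 without the low-App libraries) and H2-DMb1 from 4.37 ± 0.823 to 3.07 ± 0.600 RPKM (adjusted p = 0.0276). H2-DMb1 was not called without the low-App libraries (adjusted p = 0.0770). With log2 alignments as a covariate neither H2-DMa (adjusted p = 0.0529) nor H2-DMb1 (adjusted p = 0.0819) was called. Relative to the 12 microglia genes H2-DMa was at 0.11 (adjusted p = 0.475) and H2-DMb1 at -0.02 (adjusted p = 0.897). Cd74, the invariant chain cut by cathepsin S, was not called (adjusted p = 0.896), with 26.4 ± 3.18 RPKM in APPPS1 and 29.8 ± 24.3 RPKM in APPPS1;Apoe-/- libraries, where replicate 4 was at 83.3 RPKM. The class II chains H2-Aa (0.69 ± 0.31 on the log2 scale, adjusted p = 0.180), H2-Eb1 (0.58 ± 0.28, adjusted p = 0.210) and H2-Ab1 (0.13 ± 0.32, adjusted p = 0.841) were not called either.

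Some members share exon sequence with neighbouring genes in GENCODE release M21, and whether reads were assigned by strand is not given in the sources used here. Ctsb shares 12.8% of its exon bases with Fdft1 on the opposite strand, Ctsa 10.5% with Pltp and 6.87% with Neurl2, and Ctsz 0.694% with Nelfcd. None of these 4 neighbours was called: Fdft1 was at 0.05 ± 0.08, Pltp at 0.16 ± 0.07, Neurl2 at -0.14 ± 0.11 and Nelfcd at 0.05 ± 0.06 on the log2 scale (adjusted p = 0.760, 0.155, 0.455 and 0.644). Ctsd shares 34.4% with Gm49369, a gene model on its own strand, and Ctsl 26.8% and 6.09% with the gene models Gm47123 and Gm49230. Ctsd and Ctsc lie on the chromosome of the deleted Apoe gene, at a distance of 123 and 68.6 Mb, and the other 8 members on other chromosomes.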

How the data were processed

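RNA from flash-frozen cortex of 13 mice was extracted with Trizol and prepared with the Clontech SMARTer kit, per the labels' protocols. The authors deposited 1 table of RPKM per gene and library, with a count of alignments per library. Partek and the mm10 build were used, per the submitters' processing notes. For the aligner, annotation, counting rule and strand, nothing is given in the sources used here. The values keep no read counts, so no sampling interval is given, and weak genes are less precise in the shallower libraries.

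Groups were taken from the genotype labels. The members and gene lists were chosen with earlier results of these data known. The named genes are the 10 members, Apoe, App and Thy1, up to 4 called genes per pathway list with the smallest adjusted p, list genes needed for their role, and the 3 genes with the profile most like Ctsd, Ctss, Cst7 and Cst3, of which 1 is not reported here. The profile measure is the mean absolute difference of mean-centred log2(RPKM + 0.5) over the libraries. The 13343 genes averaging 0.5 RPKM or more were tested as log2(RPKM + 0.5) by limma (version 3.58.1, under R 4.3.3), using lmFit and trended eBayes with genotype alone in the model. P-values were two-sided, with Benjamini-Hochberg adjustment over all tested genes and a call at an adjusted p under 0.05. A parallel fit subtracted from every gene the mean log2 value of 12 microglia genes in the same library, and the rows of those 12 genes are not reported from it. Low-App libraries are those under 150 RPKM of App. Other pseudocounts, filters, scalings, variance models, array weights, covariates (alignments, and a score of sex-linked genes), another marker list and leaving out libraries were tried.

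Libraries were compared in 78 pairs (correlations of 0.981 to 0.994), and 0 pairs were identical. The fit was tested on simulated data with the same group sizes and 200 changed genes among 13343. It called 80.6% of genes with a log2 change of 0.5, 98.5% at 1 and 100% at 2, with 9 unchanged genes called. Noise was drawn independently for each gene and library, with no low-App pair and no depth difference between groups. The simulation therefore does not give the error rate in these data. Gene positions and exon overlaps are from GENCODE release M21, and promoters from RefSeq. Tables and figures were made in Python 3.11.15 (numpy 2.4.6, pandas 2.3.3, matplotlib 3.10.9).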

Additional observations from a re-analysis of the deposited data

Results flagged for a closer look

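In 82 groups of libraries (1 genotype and 1 named gene each), the highest or lowest library was compared with the rest by Dixon's test, which chance alone passes in about 1 of 20 groups, and 7 groups had a library far from the others. Among the members, Cst7 in APPPS1 replicate 3 was at 32.6 RPKM, with the nearest of the other 5 libraries at 59.5, and Ctsl in APPPS1 replicate 1 was at 46.5 RPKM, with the nearest at 43.4. APPPS1 replicate 3, the most deeply sequenced library, was also far from its group in Fcer1g, at 59.1 RPKM with the nearest at 73.5, and in Tpp1, at 40.1 RPKM with the nearest at 37.8. Ccl4 was at 19.4 RPKM in APPPS1 replicate 2, with the nearest at 9.95. In APPPS1;Apoe-/- replicate 4, Cd74 was at 83.3 RPKM with the nearest at 31.7, and H2-Aa at 21.2 RPKM with the nearest at 5.45. Without APPPS1 replicate 3 the fall of Cst7 stayed past the threshold, as it did without any other single library, with log2 differences from -3.27 to -2.56.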

How the results depend on the processing

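No paired analysis was possible because the labels number no replicates, and the numbers used here only follow the order of the samples. Ctsd, Ctsa and Ctsz were called lower under all 26 other settings, and all 10 members kept the sign of their difference under each setting in which they were tested (Ctsc was below a filter of 2 RPKM). When log2 alignments entered the fit as a covariate, 202 genes were called in place of 1098, 3 members in place of 8, and 1 member, Cst7, in place of 4 relative to the microglial marker mean. Without both low-App libraries 677 genes were called, and with the alignments covariate added 281 genes and 5 members. Leaving out 1 library at a time gave 711 (without APPPS1 replicate 6) to 1594 (without APPPS1;Apoe-/- replicate 4) called genes and 7 to 8 members. Relative to the marker mean, Cst7, Ctsd and Ctsz were lower in all 13 of these fits, and Cst3 was called higher in 2. The shares of all tested genes in these 13 relative fits are not given. In the relative fit over all libraries 0.719% were lower and 75.2% higher, so the Cst3 call is not read as particular to it. Quantile normalization gave 608 genes lower and 687 higher, in place of 633 and 465. Under the other settings the member counts were 6, without the filter on low values, to 9, with quantile normalization. Without the filter 517 of 20915 genes were called lower and 354 higher. With array weights 805 of 13343 genes were called lower and 632 higher, with 8 members called.

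Relative to the microglial marker mean, small differences changed sign, none of them called. Ctsa went from 0.09 to -0.00065 with array weights, to -0.036 without the low-App libraries and to -0.0075 with the alignments covariate added. Ctsc went from -0.02 to 0.050 with a pseudocount of 1, 0.028 with quantile normalization, 0.070 with the alignments covariate, 0.062 with it and without the low-App libraries, and 0.28 with the other marker list, and ran from -0.054 to 0.020 over single libraries left out. Ctsh went from 0.02 to -0.0095 with the alignments covariate and ran from -0.015 to 0.052 over single libraries left out. Ctss went from -0.28 to 0.028 with the other marker list. The cause of these changes was not tested. The ratios of Ctsd to Ctsb and of Cst7 to Ctss, chosen after seeing the data, kept their direction without the low-App libraries (log2 -0.51 and -1.48, in place of -0.68 and -2.32) and without each single library. RPKM gives no read counts, so the reads behind weak genes such as Ctse and Tfeb are unknown.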
